A study of Arabidopsis thaliana with 12 samples.

Results

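Wild-type anthers of Arabidopsis thaliana at the stage labelled PMII (pollen mitosis II) were set against wild-type anthers at the stage labelled PMI (pollen mitosis I). The comparison rests on 4 of the 12 Affymetrix ATH1 arrays of the series, 2 per stage, chosen by genotype and stage label and not by any measured value. The tissue was anther together with filament, from plants grown at 22 °C, with a day of 22 h and a night of 2 h. The PMII group is wild type, with the numbers 8 to 10 in its array titles, and the PMI group is wild type with the numbers 3 to 5. What these numbers count is not said. The wild type is named Glabra as a source and Ler in the titles, with the stock code N64, and neither group carried a transgene or a treatment per the labels. Another 2 wild-type arrays were labelled bicellular (title numbers 6 to 7), and 6 arrays came from ms35, labelled as a gene knock-out in the Ler-0 background, at the same 3 stages. The ms35 mutation lies in MYB26, and its anthers do not open. The targeted gene had no named probe set and was not analysed here. Replicates are numbered 1 and 2 with no word on separate plants, so a p-value here speaks only of the spread between these arrays, which could be technical.

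In pollen development the microspore divides unequally at pollen mitosis I into a large vegetative cell, which will grow the pollen tube, and a small generative cell. At pollen mitosis II the generative cell divides into the sperm cells. The tapetum, the innermost anther wall layer, feeds the microspores, secretes material for the pollen wall and coat, and degenerates before the pollen is mature. Genes of pollen germination and tube growth are therefore known to be transcribed late, after most tapetum genes have passed their peak.

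The marker genes ran against that order. The late pollen genes were brightest in the arrays labelled PMI and the tapetum genes in those labelled PMII. The summed signal of the 22 late pollen genes with a named probe set was 1017 and 2129 in the PMII arrays, 3211 and 2225 in the bicellular arrays and 12564 and 12319.7 in the PMI arrays. The sum of the 12 tapetum genes was 12157 and 15399.6 in the PMII arrays, 9738 and 12203 in the bicellular arrays and 2557 and 1517 in the PMI arrays. Neither pair of sums overlapped between PMII and PMI. Stage names are therefore kept as labels, and "PMII" and "PMI" below name groups of arrays. Words such as rose, fell and step compare PMII with PMI arrays and state no order in time.

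Of the 4 arrays, PMII replicate 2 stood apart. Its ratio of 3' to 5' GAPDH control signal, a sign of RNA integrity, was 2.86, the highest of all 12 arrays, which ran from 1.29. PMII replicate 1 had 1.53, and the PMI arrays had 1.82 and 1.53. PMII replicate 2 also had 14470 probe sets above the low-signal limit of 25.5, against 13450 in PMII replicate 1, and 18 of the 22 late pollen genes were brighter in it than in PMII replicate 1. The alternatives included a fit without the 2 arrays of highest GAPDH ratio, PMII replicate 2 among them. That fit leaves a single PMII array, so it cannot separate RNA quality from the loss of an array. Whether RNA quality has a part in the results was not tested beyond that. Beside many counts of called genes stand the counts, or the genes that lost their call, with some or all of the 4 arrays left out singly. Across probe sets the PMII arrays correlated with r = 0.902 and the PMI arrays with r = 0.929, and no arrays held identical values. The values are MAS5 signals on a linear scale with the same trimmed mean of 100.01 on each array, and the number of arrays limits their precision.

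Of 16464 probe sets tested, 4771 (29.0%) were called between PMII and PMI at a limma adjusted p under 0.05 (Benjamini-Hochberg), 2804 (17.0%) of them higher and 1967 (11.9%) lower at PMII. The falls were fewer and larger. Among called probe sets, 1940 were higher and 1508 lower by at least 1 on the log2 scale, 72 and 200 by at least 4, and 18 and 30 by at least 6. Over all tested probe sets the median log2 change was 0.19, so changes are read against that shift. With each array centred on its median 2017 were called higher and 2436 lower, so that 45.3% of calls were higher, against 58.8% without the centring. The 2 PMII arrays lay wholly above or below the 2 PMI arrays for 66.0% of all tested probe sets and for all 4771 called. The count was 3113 without PMI replicate 1, 3123 without PMI replicate 2, 3187 without PMII replicate 1 and 3204 without PMII replicate 2, and 62.7% of the original calls held without PMII replicate 2.

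**Figure D1:**
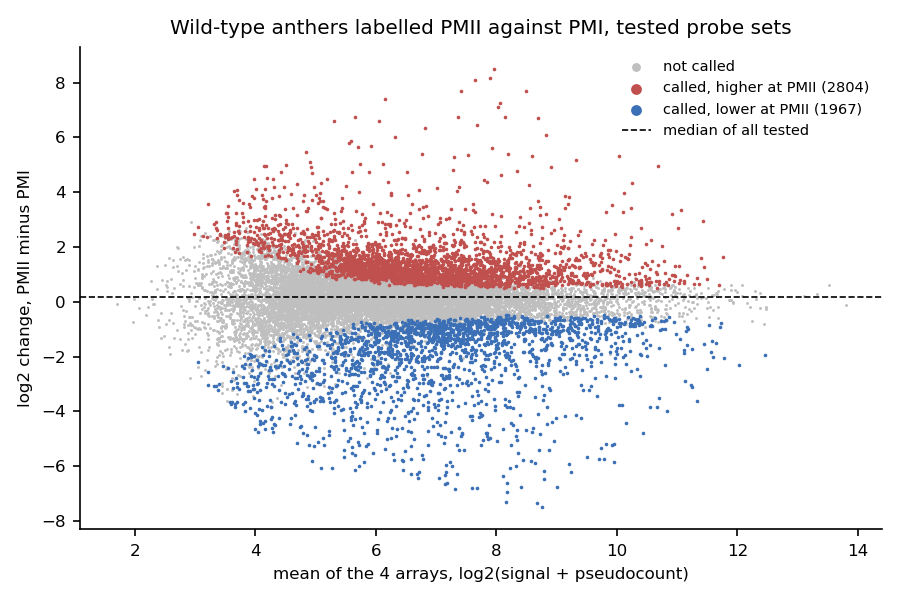
Each point is 1 of 16464 tested probe sets, with the mean of the 4 arrays on the horizontal axis, as log2(signal + 2.23), and the log2 change between PMII and PMI arrays on the vertical axis. Red points were called higher at PMII (2804) and blue points lower (1967); the blue cloud reaches farther from the dashed median of 0.19, with 200 calls at or beyond -4 against 72 at or beyond 4.

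The bicellular arrays mostly lay between the ends. Their mean was intermediate for 79.8% of the probe sets called higher and 78.2% of those called lower at PMII. From the PMI to the PMII mean, the bicellular mean lay a median of 74.7% across for the higher calls and 64.0% for the lower calls. Between the bicellular and PMI arrays 18.1% of probe sets were called, and between the PMII and bicellular arrays 1.55%. These comparisons share arrays with each other and with the comparison of the ends.

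Late pollen and pollen tube genes were far lower at PMII. Of the 20 tested members of the list (of 72 listed and 22 named), 16 fell, 0 rose and 4 did not pass, with a median log2 change of -2.59 against 0.19 over all tested, where 11.9% of probe sets fell. Without PMII replicate 2 14 members fell, and without PMII replicate 1 11. AtVEX1, a sugar transporter of the SWEET family made in the vegetative cell, had a signal of 46.7 and 63.8 in the PMII arrays, against 1986 and 1728 in the PMI arrays. The groups lay far apart and the replicates close together, with a log2 change of -5.03 ± 0.78 (SE, limma adjusted p = 0.000758). In anthers with pollen, fewer pollen cells and less RNA per pollen cell cannot be told apart.

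The receptors and the cytoskeleton of the tube moved the same way. ANX1, a receptor-like kinase that keeps the growing tube from bursting, had 1.69 and 3.05 in the PMII arrays, against 98.6 and 66.8 in the PMI arrays, so both PMII values were under the low-signal limit. Its log2 change was -4.20 ± 0.86 (SE, limma adjusted p = 0.00374). Its close relative ANX2 had 1.14 and 1.81 in the PMII arrays, against 34.0 and 55.8 in the PMI arrays, a change of -3.64 ± 1.21 (SE, limma adjusted p = 0.0400), with no overlap but only dim signals. AT4G39110, a list member that the gene table leaves unnamed, had 10.6 and 18.2 in the PMII arrays, against 254 and 199 in the PMI arrays, a change of -3.81 ± 0.65 (SE, limma adjusted p = 0.00134). AT5G45880, likewise unnamed, had 167 and 926 in the PMII arrays, against 5834 and 5607 in the PMI arrays. Its PMII replicates differed severalfold, yet both lay below the PMI arrays, and the change was -3.85 ± 0.74 (SE, limma adjusted p = 0.00245). PLIM2a, an actin-bundling LIM protein of pollen, had 14.5 and 65.0 in the PMII arrays, against 391 and 667 in the PMI arrays, a change of -3.94 ± 0.91 (SE, limma adjusted p = 0.00703). PLIM2a lost its call without PMII replicate 1 (limma adjusted p = 0.0704) or PMI replicate 2 (0.0595). ANX2 lost its call whichever of the 4 arrays was left out (limma adjusted p between 0.0900 and 0.210).

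In the male germ line, MGH3, a histone H3 variant of sperm and generative cells, was the single list member with a named probe set. Its signal was 22.0 and 19.1 in the PMII arrays, against 713 and 496 in the PMI arrays, and its log2 change was -4.72 ± 0.52 (SE, limma adjusted p = 0.000109), with PMII signals under the limit. At the bicellular stage it had 173 and 78.6, between both ends. Of 3 tested genes for cell division, the Aurora kinases AUR1 and AUR2, which act on chromosomes and the spindle in mitosis, fell. The other, PRL, had a positive change that did not pass (0.87, limma adjusted p = 0.0626). Over all tested probe sets 11.9% fell. AUR1 had 97.0 and 89.8 in the PMII arrays, against 185 and 199 in the PMI arrays (log2 change -1.02 ± 0.25, limma adjusted p = 0.00873) and AUR2 had 44.2 and 54.0 in the PMII arrays, against 105 and 127 in the PMI arrays (log2 change -1.21 ± 0.35, limma adjusted p = 0.0216). The groups did not overlap for AUR1 and AUR2, which holds for every called probe set, and their changes were small beside that of MGH3. AUR1 lost its call without PMI replicate 2 (limma adjusted p = 0.0531). AUR2 lost its call whichever of the 4 arrays was left out (limma adjusted p between 0.0523 and 0.118).

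**Figure D2:**
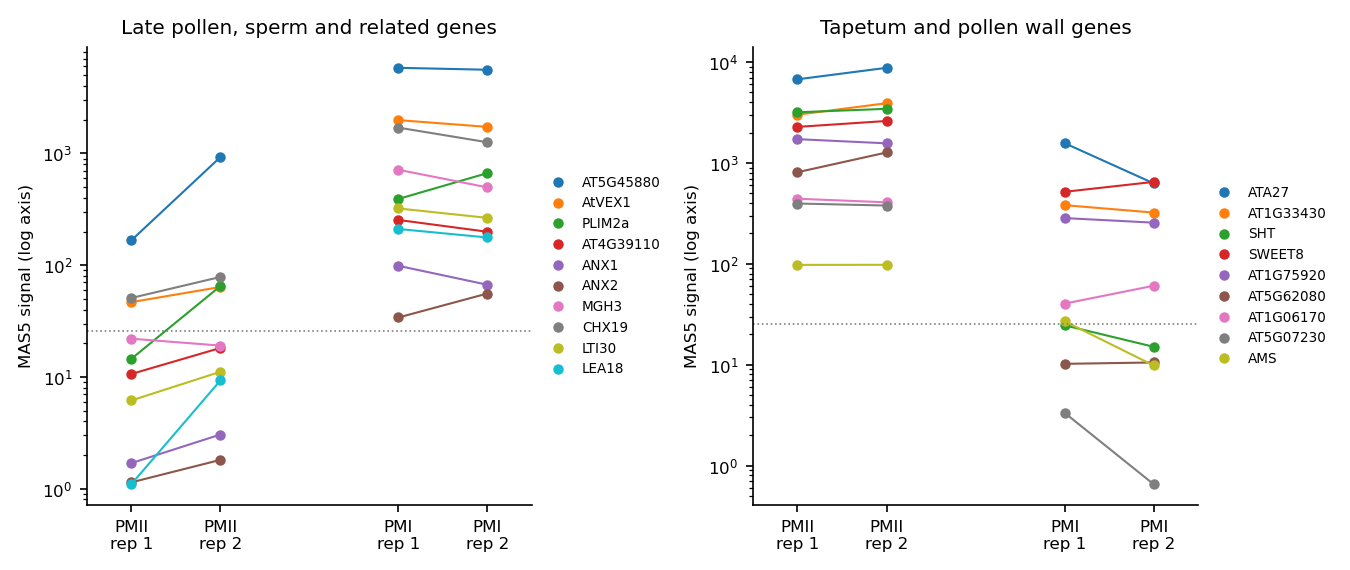
Signal of each gene (log axis, MAS5 units) in the 2 PMII arrays and, to their right, the 2 PMI arrays, with lines joining replicates and a dotted line at the low-signal limit of 25.5. On the left, late pollen, sperm, exchanger and late embryogenesis genes are all lower at PMII, and most are brighter in PMII replicate 2 than in replicate 1; on the right, tapetum and pollen wall genes are all higher at PMII.

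Genes known from dry tissue and maturing pollen were lower at PMII. All 5 tested LEA proteins and dehydrins, hydrophilic proteins that protect cells during drying, fell, with a median log2 change of -4.30. Over all tested probe sets 11.9% fell, and the median log2 change was 0.19. LEA18 had 1.10 and 9.29 in the PMII arrays, against 211 and 177 in the PMI arrays, a change of -4.98 ± 0.95 (SE, limma adjusted p = 0.00240). The dehydrin LTI30 had 6.16 and 11.1 in the PMII arrays, against 322 and 265 in the PMI arrays, a change of -4.80 ± 0.72 (SE, limma adjusted p = 0.000632). Its replicates were close at both stages beside that change. LEA had 109.5 and 204 in the PMII arrays, against 2583 and 2768 in the PMI arrays (-4.14 ± 0.91, limma adjusted p = 0.00541), and LEA4-5 had 3.59 and 18.2 in the PMII arrays, against 213 and 211 in the PMI arrays (-4.30 ± 1.08, limma adjusted p = 0.0112). COR47 was bright throughout and fell least, with 810.3 and 935 in the PMII arrays, against 2272 and 2899 in the PMI arrays and a change of -1.56 ± 0.20 (SE, limma adjusted p = 0.000282). LEA4-5 lost its call without PMII replicate 1 (limma adjusted p = 0.0895) or PMI replicate 1 (0.0606) or PMI replicate 2 (0.0596). Without PMII replicate 2 all 5 fell, and without PMII replicate 1 4.

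Several ion and sugar carriers were lower at PMII. Over all tested probe sets 11.9% fell and 17.0% rose. Of 4 tested cation pumps and exchangers, 3 fell and 0 rose (median log2 change -3.06), and the falls numbered 2 without PMII replicate 1, 3 without PMII replicate 2, 2 without PMI replicate 1 and 3 without PMI replicate 2. All were CHX proteins, a family of cation/proton exchangers. CHX19 had 50.8 and 78.4 in the PMII arrays, against 1701 and 1258 in the PMI arrays, a change of -4.49 ± 0.51 (SE, limma adjusted p = 0.000125). CHX20 had 16.05 and 16.8 in the PMII arrays, against 108 and 126 in the PMI arrays, a change of -2.67 ± 0.32 (SE, limma adjusted p = 0.000156), with tight replicates at both stages. CHX15 changed by -3.44 ± 0.84 (SE, limma adjusted p = 0.00962). Of 13 tested sugar carriers, 1 rose and 7 fell, and the falls numbered 4 without PMII replicate 1, 6 without PMII replicate 2, 5 without PMI replicate 1 and 3 without PMI replicate 2. All 13 were SWEET genes, so no other kind of sugar carrier was measured on that list. AtVEX1, described above, is not on it. SWEET13 and SWEET14 had the most negative changes on the list, with 13.2 and 120.4 in the PMII arrays, against 162 and 469 in the PMI arrays for SWEET13 (-2.68 ± 0.73, limma adjusted p = 0.0166) and 16.2 and 80.01 in the PMII arrays, against 106 and 303 in the PMI arrays for SWEET14 (-2.22 ± 0.63, limma adjusted p = 0.0197). SWEET7 had 335 and 536 in the PMII arrays, against 1243 and 1133 in the PMI arrays, and its change was -1.48 ± 0.27 (SE, limma adjusted p = 0.00190). CHX15 lost its call without PMII replicate 1 (limma adjusted p = 0.0757) or PMI replicate 1 (0.0707). SWEET13 lost its call without PMII replicate 1 (limma adjusted p = 0.130) or PMI replicate 2 (0.148). SWEET13 kept its call and moved to -4.18 without PMII replicate 2. SWEET14 lost its call without PMII replicate 1 (limma adjusted p = 0.184) or PMI replicate 2 (0.177).

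Small secreted peptides of the RALF family, ligands of receptor-like kinases of the ANX type, moved both ways. Of 7 tested, 2 fell and 3 rose, against 11.9% and 17.0% of all tested probe sets. The falls numbered 0 without PMII replicate 1, 2 without PMII replicate 2, 1 without PMI replicate 1 and 1 without PMI replicate 2, and the rises 3 without PMII replicate 1, 1 without PMII replicate 2, 2 without PMI replicate 1 and 1 without PMI replicate 2. RALFL25 had 8.99 and 56.4 in the PMII arrays, against 739.7 and 823 in the PMI arrays, a change of -4.93 ± 1.15 (SE, limma adjusted p = 0.00755), and RALFL26 had 8.09 and 49.6 in the PMII arrays, against 202 and 314 in the PMI arrays, a change of -3.46 ± 0.96 (SE, limma adjusted p = 0.0183). In the other direction, RALFL31 had 144 and 128 in the PMII arrays, against 38.1 and 53.1 in the PMI arrays, a change of 1.54 ± 0.27 (SE, limma adjusted p = 0.00137). RALFL32 and RALFL34 rose by 1.36 ± 0.34 and 0.90 ± 0.26 (limma adjusted p = 0.0109 and 0.0229). Both ends of the family were free of overlap between stages, as was every called probe set. RALFL25 lost its call without PMII replicate 1 (limma adjusted p = 0.0745). RALFL26 lost its call without PMII replicate 1 (limma adjusted p = 0.152) or PMI replicate 1 (0.0645) or PMI replicate 2 (0.117). RALFL32 lost its call without PMII replicate 2 (limma adjusted p = 0.0861) or PMI replicate 2 (0.0765). RALFL34 lost its call without PMII replicate 2 (limma adjusted p = 0.143) or PMI replicate 1 (0.0933) or PMI replicate 2 (0.0841).

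Motor and respiratory genes were collected into families after their values had been seen, so their counts are a description, beside 11.9% of all tested probe sets that fell. Of 5 tested class XI myosins, actin motors that drive organelle movement, XIC, XIE and XIJ fell, and 3 fell whichever of the 4 arrays was left out. XIC had 51.6 and 81.6 in the PMII arrays, against 504.2 and 489 in the PMI arrays, a change of -2.89 ± 0.50 (SE, limma adjusted p = 0.00144). XIE had 246 and 183 in the PMII arrays, against 1146 and 882 in the PMI arrays (-2.23 ± 0.35, limma adjusted p = 0.000852), and XIJ had 24.4 and 27.9 in the PMII arrays, against 137 and 123 in the PMI arrays (-2.22 ± 0.31, limma adjusted p = 0.000417). The other members, XI-I and XIH, had 0.26 ± 0.27 and -0.48 ± 0.49 (limma adjusted p = 0.502 and 0.502). Of 11 tested respiratory dehydrogenase and cytochrome c genes, 8 fell and none rose, and 8 fell whichever of the 4 arrays was left out. NDB3, an external NAD(P)H dehydrogenase of mitochondria, had 94.7 and 117 in the PMII arrays, against 664 and 701 in the PMI arrays, a change of -2.67 ± 0.26 (SE, limma adjusted p = 3.90e-05). CYTC-2, a cytochrome c gene, had 323 and 386 in the PMII arrays, against 1761 and 1486 in the PMI arrays (-2.19 ± 0.20, limma adjusted p = 2.67e-05), whereas its paralogue CYTC-1 changed by -0.45 ± 0.19 (SE, limma adjusted p = 0.103). SDH1-1 and SDH2-2, subunits of succinate dehydrogenase, fell by 1.38 and 1.54 on the log2 scale (limma adjusted p = 0.000880 and 0.000346). Of 7 tubulin genes 3 fell, and the falls numbered 2 without PMII replicate 1, 3 without PMII replicate 2, 3 without PMI replicate 1 and 2 without PMI replicate 2. TUB1 (-2.39 ± 0.26, limma adjusted p = 8.33e-05) and TUA1 (-1.73 ± 0.35, limma adjusted p = 0.00354), known as a pollen alpha-tubulin, had the most negative changes.

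The largest falls belonged to genes that were under the low-signal limit in PMII replicate 1. The 15 named probe sets with the most negative changes ran from -7.49 to -6.06. All 15 lay under 25.5 in PMII replicate 1 and 2 of them in PMII replicate 2, where signals ran up to 203, so the size of the gap between the PMII replicates cannot be read. None was under the limit in a PMI array, and the ratio of PMI replicate 2 to replicate 1 ran from 0.546 to 1.30. AT1G29140 had 2.896 and 203 in the PMII arrays, against 6355 and 5351 in the PMI arrays, a change of -7.49 ± 1.77 (SE, limma adjusted p = 0.00803). AT5G61720 had 0.735 and 174 in the PMII arrays, against 3483 and 3648 in the PMI arrays, a change of -7.29 ± 1.81 (SE, limma adjusted p = 0.0104). Even the brighter PMII array lay far below the PMI arrays in both. The 15 changes ran from -5.84 to -3.76 without PMII replicate 1, from -10.23 to -6.31 without PMII replicate 2, and from -6.51 to -4.03 with a pseudocount of 16, and 9 of the 15 were called without PMII replicate 1. AT1G29140 lost its call without PMII replicate 1 (limma adjusted p = 0.0852). AT5G61720 lost its call without PMII replicate 1 (limma adjusted p = 0.107) or PMI replicate 1 (0.0530) or PMI replicate 2 (0.0543).

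Among the 15, SBT4.13, a subtilase, which is a serine protease, had 12.0 and 154 in the PMII arrays, against 3675 and 4631 in the PMI arrays, a change of -6.45 ± 0.94 (SE, limma adjusted p = 0.000530) that kept its call whichever of the 4 arrays was left out. AT5G14890 had PMII replicates that were both near 0, with 1.30 and 2.66 in the PMII arrays, against 303 and 254 in the PMI arrays and a change of -6.07 ± 0.68 (SE, limma adjusted p = 0.000110). AT1G71680 had 2.72 and 38.3 in the PMII arrays, against 1699.7 and 1200.1 in the PMI arrays (-6.66 ± 1.19, limma adjusted p = 0.00173). Of the named probe sets, 13 had a PMII mean under the limit of 25.5 and a PMI mean over 20 times the limit, among them AT1G71680, AT5G25550 and AT3G21670. AT3G21670 had 6.17 and 24.9 in the PMII arrays, against 656 and 994 in the PMI arrays, and its change was -5.74 ± 0.47 (SE, limma adjusted p = 1.53e-05). The rest of the 15 were loci that the gene table leaves unnamed.

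Tapetum genes were higher at PMII. Of the 9 tested members (of 24 listed and 12 named), 7 rose, 0 fell and 2 did not pass, with a median log2 change of 2.95 against 0.19 over all tested, where 17.0% of probe sets rose. Without PMII replicate 2 7 rose, without PMII replicate 1 6, and with median centring 6. Among regulators, AMS, a bHLH factor needed for tapetum function and pollen wall formation, had 97.6 and 97.8 in the PMII arrays, against 27.0 and 9.84 in the PMI arrays, a change of 2.41 ± 0.41 (SE, limma adjusted p = 0.00128). AT1G06170, which the gene table leaves unnamed, had 442 and 407 in the PMII arrays, against 40.3 and 60.6 in the PMI arrays, a change of 3.04 ± 0.27 (SE, limma adjusted p = 2.67e-05). The groups were well apart in both. EMS1, a receptor kinase that specifies the tapetum early in the anther, had 328 and 316 in the PMII arrays, against 374 and 303 in the PMI arrays. The stages overlapped, and the change was -0.06 ± 0.20 (SE, limma adjusted p = 0.850).

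The largest rises of the list were those of AT5G07230 and AT5G62080. AT5G07230 had 396 and 378 in the PMII arrays, against 3.34 and 0.654 in the PMI arrays, a change of 6.60 ± 0.75 (SE, limma adjusted p = 0.000125), and was at 12.8 and 4.34 in the bicellular arrays. AT5G62080 had 809 and 1269 in the PMII arrays, against 10.2 and 10.5 in the PMI arrays, a change of 6.33 ± 0.37 (SE, limma adjusted p = 2.03e-06), with 574 and 550.3 in the bicellular arrays. Both are list members without a name in the gene table, and both separated the stages by far more than the replicates differed. AT1G33430 had 3007 and 3908 in the PMII arrays, against 382 and 322 in the PMI arrays, a change of 3.28 ± 0.27 (SE, limma adjusted p = 1.57e-05). ATA27, a beta-glucosidase-like protein of the anther, had 6745 and 8768 in the PMII arrays, against 1571 and 628 in the PMI arrays, a change of 2.95 ± 0.38 (SE, limma adjusted p = 0.000240), and was among the bright probe sets at both stages. AT1G75920, listed with the pollen coat, had 1721 and 1565 in the PMII arrays, against 284 and 256 in the PMI arrays (2.60 ± 0.29, limma adjusted p = 0.000107). Its neighbour AT1G75880 moved the other way, with 249.8 and 319 in the PMII arrays, against 523 and 601 in the PMI arrays (-0.99 ± 0.23, limma adjusted p = 0.00675), and the other pollen coat members AT1G75900 and AT1G75890 had 0.34 ± 0.41 and -0.60 ± 1.05 (limma adjusted p = 0.578 and 0.712). AT1G75880 lost its call without PMII replicate 1 (limma adjusted p = 0.0599) or PMI replicate 2 (0.0518).

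Genes of the pollen wall and of its phenolamides were measured through SHT and SWEET8, and both rose. SHT, which joins hydroxycinnamic acids to spermidine in the tapetum and so makes the phenolamides of the pollen surface, had 3177 and 3440.2 in the PMII arrays, against 24.6 and 15.1 in the PMI arrays, with 1163 and 1993 in the bicellular arrays. Its change, 7.26 ± 0.55 (SE, limma adjusted p = 9.94e-06), stood among the 15 largest rises among named probe sets. SWEET8, a sugar transporter needed for the primexine on which the pollen wall is laid down, had 2277 and 2606 in the PMII arrays, against 517 and 649 in the PMI arrays, a change of 2.07 ± 0.26 (SE, limma adjusted p = 0.000239). The bicellular arrays, at 2194 and 2357, were near the PMII level. SHT and SWEET8 were the single members of their lists with a named probe set, so no count over those lists is given.

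The 15 largest rises among named probe sets ran from 5.41 to 8.50 and kept their calls whichever of the 4 arrays was left out. None of the 15 was under the limit of 25.5 in a PMII array, against 10 in PMI replicate 1 and 14 in PMI replicate 2. The ratio of PMII replicate 2 to replicate 1 ran from 0.420 to 1.58. AT5G16960 had 4709.6 and 4715 in the PMII arrays, against 30.8 and 2.91 in the PMI arrays, a change of 8.50 ± 0.79 (SE, limma adjusted p = 3.21e-05). AT5G13380 had 3286 and 3295 in the PMII arrays, against 20.14 and 4.40 in the PMI arrays, a change of 8.08 ± 0.58 (SE, limma adjusted p = 7.68e-06). AT5G48210, AT5G16920, AT5G65205 and AT1G30020 followed, with changes of 7.10 ± 0.55, 6.75 ± 0.72, 6.74 ± 0.60 and 6.71 ± 0.55 (limma adjusted p = 1.06e-05, 8.07e-05, 2.47e-05 and 1.42e-05). None of these loci has a name in the gene table. Of the named probe sets, 11 had a PMI mean under the limit and a PMII mean over 20 times the limit, against 13 the other way. With a pseudocount of 16 the 15 changes ran from 4.16 to 7.31. AT5G16960 had 1264 and 2053 in the bicellular arrays, but AT1G02813 had 4.19 and 20.9 there and 999 and 420.1 in the PMII arrays, against 7.49 and 2.43 in the PMI arrays, a change of 6.59 ± 0.88 (SE, limma adjusted p = 0.000316), with the bicellular arrays at the level of PMI.

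**Figure D3:**
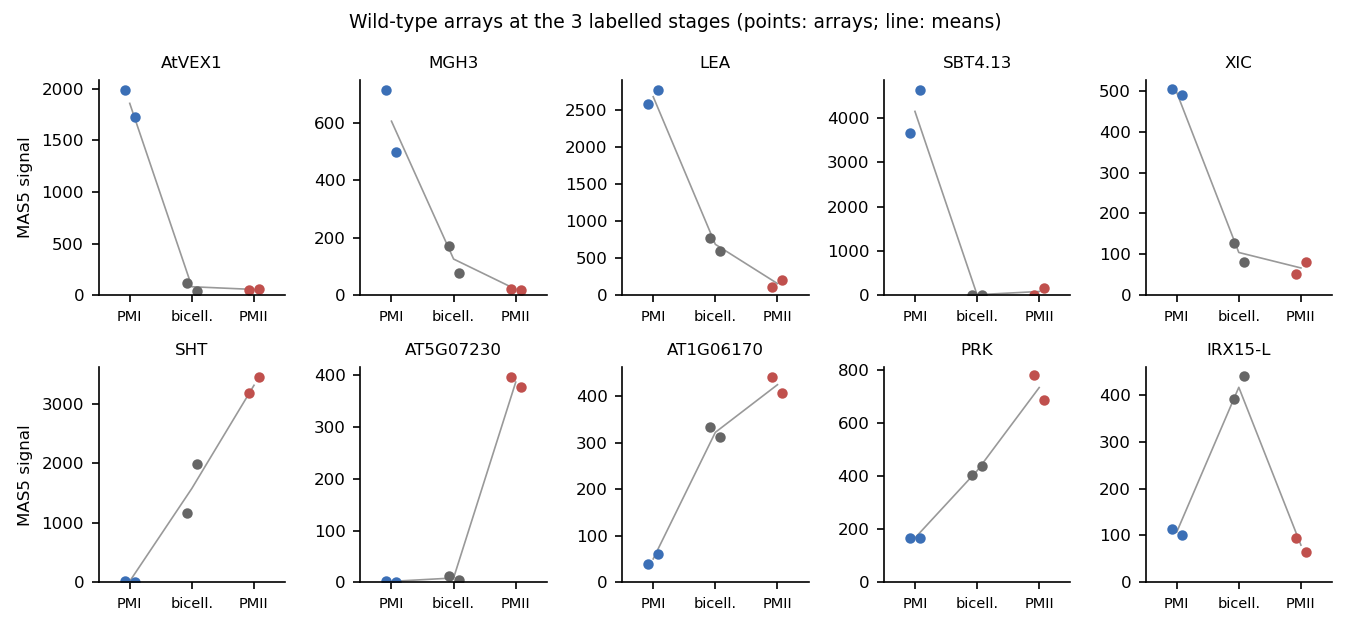
Signal (MAS5 units, linear axis from 0) of 10 genes in the wild-type arrays labelled PMI, bicellular and PMII, with 1 point per array and a line through the means. AtVEX1, MGH3, LEA, SBT4.13 and XIC are low in the bicellular and PMII arrays. SHT, AT1G06170 and PRK lie between the ends in the bicellular arrays. AT5G07230 is high in the PMII arrays alone, and IRX15-L is highest in the bicellular arrays.

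Photosynthesis genes were higher at PMII. Over all tested probe sets 17.0% rose, and the median log2 change was 0.19. All 4 tested members of the nuclear photosynthesis list rose, with a median log2 change of 1.45, and all 4 rose without either PMII array and with median centring. PRK, phosphoribulokinase of the Calvin cycle, had 779.6 and 688 in the PMII arrays, against 167 and 167 in the PMI arrays, a change of 2.12 ± 0.25 (SE, limma adjusted p = 0.000157). RCA, which activates Rubisco, had 1324 and 1303 in the PMII arrays, against 489.6 and 481 in the PMI arrays (1.43 ± 0.30, limma adjusted p = 0.00422), and SBPASE, another Calvin cycle enzyme, had 467 and 559 in the PMII arrays, against 198 and 185 in the PMI arrays (1.41 ± 0.29, limma adjusted p = 0.00352). LHCB4.1, an antenna protein of photosystem II, had 1708 and 1844 in the PMII arrays, against 515 and 787 in the PMI arrays (1.48 ± 0.28, limma adjusted p = 0.00238). The PMII arrays lay above the PMI arrays in every case. Stages were likewise free of overlap for all 4771 called probe sets and for 66.0% of all tested. The bicellular arrays lay in between for PRK, RCA and SBPASE, with 403 and 438 for PRK. Green anther tissue and the filament both contribute RNA to these samples, and their shares were not measured.

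Wider families of plastid genes were defined after their values had been seen and are described by their counts, beside 17.0% of all tested probe sets that rose. Of 12 nuclear genes for subunits of the photosystems, the NDH complex and the plastid ATP synthase, 11 rose and 0 fell (median 1.50), and the rises numbered 8 without PMII replicate 1, 9 without PMII replicate 2, 8 without PMI replicate 1 and 10 without PMI replicate 2. LHCB4.2 had 363 and 602 in the PMII arrays, against 41.7 and 135 in the PMI arrays (2.60 ± 0.44, limma adjusted p = 0.00131), PSAN of photosystem I had 527 and 725 in the PMII arrays, against 94.2 and 139.9 in the PMI arrays (2.41 ± 0.39, limma adjusted p = 0.000976), and PSAE-1 had 1745 and 1808 in the PMII arrays, against 378 and 608 in the PMI arrays (1.88 ± 0.27, limma adjusted p = 0.000470). Of 23 genes for chlorophyll synthesis and thylakoid assembly, 12 rose and 0 fell (median 1.18), among them CHLM of chlorophyll synthesis (1.58 ± 0.26, limma adjusted p = 0.00106) and FTSZ2-2 of plastid division (1.84 ± 0.39, limma adjusted p = 0.00432). The rises numbered 8 without PMII replicate 1, 9 without PMII replicate 2, 9 without PMI replicate 1 and 9 without PMI replicate 2. Genes of the plastid genome moved less. Of 67 tested, 19 rose (28.4%) and 0 fell, with a median log2 change of 0.50, against 17.0% and 0.19 over all tested. The rises numbered 14 without PMII replicate 1, 9 without PMII replicate 2, 11 without PMI replicate 1 and 2 without PMI replicate 2, and 9 with median centring. The ribosomal gene rps2 had the largest change, 1.29 ± 0.26 (SE, limma adjusted p = 0.00360).

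Other families with rises were also defined after the values were seen, apart from the subtilases, and stand beside 17.0% of all tested probe sets that rose and 11.9% that fell. Of 12 subunits of nuclear RNA polymerases, 6 rose and 0 fell (median 1.03) and the rises numbered 3 without PMII replicate 1, 4 without PMII replicate 2, 4 without PMI replicate 1 and 3 without PMI replicate 2. NRPE7, of RNA polymerase V, had 84.8 and 65.0 in the PMII arrays, against 21.4 and 15.1 in the PMI arrays (1.92 ± 0.32, limma adjusted p = 0.00107), and NRPA2, of RNA polymerase I, had 129 and 135 in the PMII arrays, against 45.3 and 32.5 in the PMI arrays (1.72 ± 0.26, limma adjusted p = 0.000693). Of 4 tested histone H2B genes, HTB2 and HTB1 rose whichever of the 4 arrays was left out, with 177 and 316 in the PMII arrays, against 53.6 and 62.1 in the PMI arrays for HTB2 (1.99 ± 0.29, limma adjusted p = 0.000573) and 1.52 ± 0.27 (SE, limma adjusted p = 0.00180) for HTB1. Of 21 serine carboxypeptidase-like genes, 7 rose and 1 fell, and the rises numbered 5 without PMII replicate 1, 4 without PMII replicate 2, 6 without PMI replicate 1 and 5 without PMI replicate 2. The gene scpl29 had 2984 and 2686 in the PMII arrays, against 286 and 293 in the PMI arrays, a change of 3.28 ± 0.29 (SE, limma adjusted p = 2.47e-05), and SCPL32 fell (-1.32 ± 0.26, limma adjusted p = 0.00320). Among 5 tested subtilases SBT5.4 rose, with 699.7 and 774 in the PMII arrays, against 73.9 and 81.3 in the PMI arrays (3.21 ± 0.21, limma adjusted p = 5.25e-06), whereas SBT4.13 was among the largest falls.

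Genes of auxin synthesis and conjugation moved both ways. WES1 and other GH3 enzymes join auxin to amino acids and so lower free auxin. WES1 had 1547 and 1090.3 in the PMII arrays, against 423 and 445 in the PMI arrays, a change of 1.58 ± 0.32 (SE, limma adjusted p = 0.00333). GH3.3 had 2138 and 1613 in the PMII arrays, against 103 and 278 in the PMI arrays, a change of 3.43 ± 0.61 (SE, limma adjusted p = 0.00165). GH3.9 had 142 and 99.1 in the PMII arrays, against 24.4 and 1.07 in the PMI arrays (3.69 ± 0.79, limma adjusted p = 0.00456), with PMI replicate 2 at the floor of the scale. GH3.17 moved the other way, with 20.8 and 32.1 in the PMII arrays, against 254 and 299 in the PMI arrays (-3.31 ± 0.44, limma adjusted p = 0.000321), so all 4 tested GH3 genes were called, 3 higher and 1 lower, whichever of the 4 arrays was left out. The GH3 genes were grouped after their values were seen, and 29.0% of all tested probe sets were called. YUC2, an enzyme of auxin synthesis, had 147 and 101.5 in the PMII arrays, against 44.6 and 67.0 in the PMI arrays (1.13 ± 0.34, limma adjusted p = 0.0257). The auxin response repressor IAA29 was dim and lower at PMII, with 2.48 and 2.78 in the PMII arrays, against 20.97 and 24.2 in the PMI arrays (-2.35 ± 0.71, limma adjusted p = 0.0270). GH3.9 kept its call and moved to 2.18 without PMI replicate 2. YUC2 lost its call without PMII replicate 1 (limma adjusted p = 0.163) or PMI replicate 1 (0.171). IAA29 lost its call whichever of the 4 arrays was left out (limma adjusted p between 0.0694 and 0.113).

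Secondary wall genes of the xylan pathway, which thicken the endothecium before the anther opens, were not called between the ends. Calls made up 29.0% of all tested probe sets, and the counts of called genes below stand beside that share. The 4 tested members had log2 changes between -1.98 and 0.06, the most negative being IRX15 (-1.98 ± 0.95, limma adjusted p = 0.141), singled out after its values were seen, with 1.10 and 20.7 in the PMII arrays, against 30.7 and 33.6 in the PMI arrays. None of the 4 had an unadjusted p under 0.05, and IRX15 was called without PMII replicate 2, with -3.37 (limma adjusted p = 0.0354). IRX15-L, its close homologue in xylan synthesis, had a signal of 113 and 101.0 at PMI, 392 and 439.7 at the bicellular stage and 94.6 and 64.3 at PMII. PMII minus PMI was -0.44 ± 0.78 (SE, limma adjusted p = 0.713). The bicellular arrays were the highest, with 1.94 ± 0.78 (SE, limma adjusted p = 0.108) against PMI and -2.38 ± 0.78 (SE, limma adjusted p = 0.159) for PMII against bicellular. HCT, an enzyme of lignin synthesis, fell to 201 and 212 in the PMII arrays, against 1415 and 758 in the PMI arrays, a change of -2.31 ± 0.25 (SE, limma adjusted p = 8.07e-05). DFR, which makes precursors of anthocyanins, had 2.53 and 2.78 in the PMII arrays, against 30.6 and 32.1 in the PMI arrays (-2.78 ± 0.62, limma adjusted p = 0.00586), the single call among 4 flavonoid genes. ADPG1, a polygalacturonase that acts in anther dehiscence, had 10.5 and 50.9 in the PMII arrays, against 236 and 273 in the PMI arrays (-3.30 ± 0.62, limma adjusted p = 0.00215).

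Some proteins that loosen, build or acetylate the cell wall were lower at PMII. Of 12 expansins, which loosen walls, 3 fell and 1 rose. EXPA8 had 0.933 and 7.79 in the PMII arrays, against 94.8 and 169 in the PMI arrays (-4.52 ± 0.92, limma adjusted p = 0.00343), EXPA24 had -3.13 ± 1.08 (limma adjusted p = 0.0477), EXPB5 had -2.44 ± 0.64 (limma adjusted p = 0.0138) and EXPA4 had 1.46 ± 0.43 (limma adjusted p = 0.0236). Of 4 xyloglucan endotransglucosylases, 1 fell and none rose. This was XTH29, with 1.85 and 1.32 in the PMII arrays, against 54.2 and 43.2 in the PMI arrays (-3.73 ± 0.75, limma adjusted p = 0.00316). The other 3 had positive changes that did not pass (log2 changes between 0.35 and 1.29). Of 16 TBL proteins, a family of wall acetyltransferases, 4 fell and none rose, led by TBL20 with 11.2 and 1.36 in the PMII arrays, against 90.2 and 93.3 in the PMI arrays (-3.76 ± 0.71, limma adjusted p = 0.00232). Of 7 cellulose synthase-like genes, 3 fell and 1 rose, led by CSLC12 with 24.0 and 36.2 in the PMII arrays, against 209.9 and 208 in the PMI arrays (-2.73 ± 0.49, limma adjusted p = 0.00164). The shares that fell, 3 of 12, 1 of 4, 4 of 16 and 3 of 7, stand beside 11.9% of all tested probe sets. The TBL falls numbered 2 whichever of the 4 arrays was left out, the expansin falls numbered 1 without PMII replicate 1, 2 without PMII replicate 2, 2 without PMI replicate 1 and 1 without PMI replicate 2, and the cellulose synthase-like falls numbered 3 without PMII replicate 1, 3 without PMII replicate 2, 3 without PMI replicate 1 and 2 without PMI replicate 2. EXPA24 lost its call whichever of the 4 arrays was left out (limma adjusted p between 0.123 and 0.208). EXPB5 lost its call without PMII replicate 1 (limma adjusted p = 0.0992) or PMI replicate 2 (0.138). EXPA4 lost its call without PMII replicate 1 (limma adjusted p = 0.135) or PMI replicate 1 (0.221). EXPA4 kept its call and moved to 2.22 without PMI replicate 2.

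UDP-glycosyltransferases, many of which attach sugars to small molecules such as hormones and phenolics, moved both ways. Of 24 tested, 8 fell and 2 rose, against 11.9% and 17.0% of all tested probe sets, and the falls numbered 6 without PMII replicate 1, 5 without PMII replicate 2, 5 without PMI replicate 1 and 5 without PMI replicate 2. UGT87A2 had 26.5 and 3.16 in the PMII arrays, against 150.2 and 212 in the PMI arrays, the most negative change of the family (-3.86 ± 0.67, limma adjusted p = 0.00139).

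**Figure D4:**
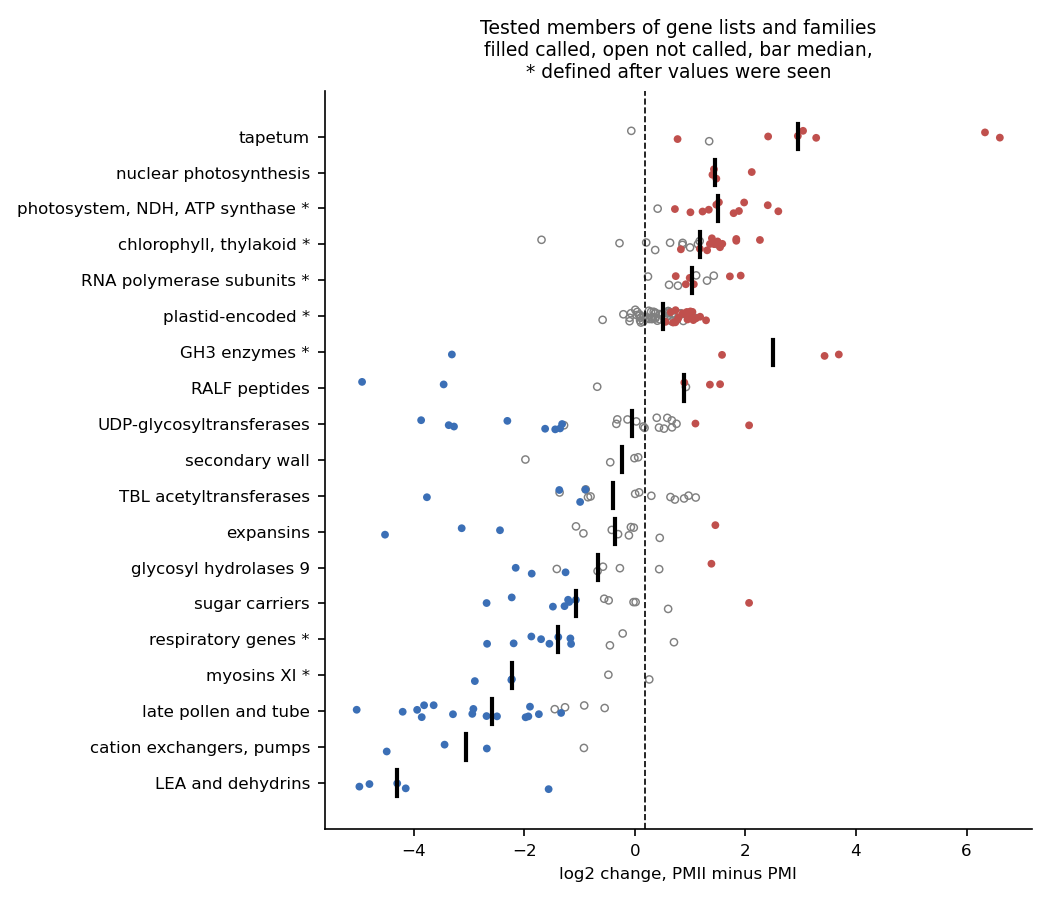
Log2 change between PMII and PMI arrays for each tested member of 19 gene lists and families, with a bar at the median of each and a dashed line at the median of all tested probe sets, 0.19. Tapetum (median 2.95) and photosynthesis genes lie to the right, the plastid-encoded genes (0.50) close to the line, and late pollen (-2.59), cation exchanger and late embryogenesis genes to the left.

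No call was made among the 3 tested gibberellin genes (log2 changes between -1.15 and 0.72), the 6 cytochromes P450 (between -0.32 and 1.83) or the 2 markers of other floral organs (between -0.38 and -0.22), and the single tested meiosis gene had -1.24 (limma adjusted p = 0.443). None of these genes had an unadjusted p under 0.05 in limma either. Of all tested probe sets 29.0% were called, and the counts in these short lists were not tested against that share. The lists for phloem and xylem, and 10 of the 29 families, had no named probe set. Most list members were not measured under a name: of 311 members of the 17 lists, 70 had a named probe set and 62 passed the filter on low signal.

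The same labelled step in ms35 shares no array with the wild-type step. Both steps take their variance from the same fit to all 12 arrays, however, so their calls are not independent. In ms35, 3505 probe sets (21.3%) were called, 1921 (11.7%) higher and 1584 (9.62%) lower at PMII, and the count was 1375 without ms35 PMII replicate 1 and 1723 without ms35 PMI replicate 2. Of the wild-type calls 54.2% were called in the same direction in ms35, which is 73.7% of the ms35 calls (2584 probe sets), and 12 were called in opposite directions. Across the tested probe sets, which are not independent replicates, the changes of the 2 genotypes correlated with r = 0.792. The late pollen list had 16 members lower in wild type and 12 in ms35, and the tapetum list had 7 higher and 0 lower in wild type, against 6 and 1 in ms35. The difference between the genotypes' steps was called for no member of either list, and 2 of each had an unadjusted p under 0.05 in limma.

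A direct test of the difference between the 2 steps called 24 of 16464 probe sets (0.146%), 12 in each direction, and 1205 had an unadjusted p under 0.05. Without the intensity trend in limma none was called (1196 at an unadjusted p under 0.05). Leaving out 1 array in wild type gave 7 calls for PMII replicate 1, 12 for PMII replicate 2, 15 for PMI replicate 1 and 13 for PMI replicate 2. Leaving out 1 in ms35 gave 9 for PMII replicate 1, 8 for PMII replicate 2, 8 for PMI replicate 1 and 4 for PMI replicate 2. AT3G13610, the gene of F6'H1, an enzyme of coumarin synthesis, had 464 and 342 in wild-type PMII arrays, against 5.12 and 17.9 in wild-type PMI arrays, and 0.941 and 2.18 in ms35 PMII arrays, against 1.52 and 2.11 in ms35 PMI arrays. It was bright only in wild-type PMII arrays among these 8 arrays, and the wild-type step exceeded the ms35 step by 5.15 ± 0.85 on the log2 scale (SE, limma adjusted p = 0.0422). AT1G44970 had 1245 and 1124 in wild-type PMII arrays, against 34.5 and 20.9 in wild-type PMI arrays, and 565 and 518 in ms35 PMII arrays, against 55.6 and 67.5 in ms35 PMI arrays. It rose in both genotypes, and the steps differed by 2.25 ± 0.34 (limma adjusted p = 0.0329). AT3G27200 had 493 and 260.1 in wild-type PMII arrays, against 439 and 440.1 in wild-type PMI arrays, and 32.4 and 25.4 in ms35 PMII arrays, against 318 and 387 in ms35 PMI arrays, a difference of 3.22 ± 0.42 (limma adjusted p = 0.0125). Its wild-type arrays overlapped between the stages, and its ms35 arrays were low at PMII. AT3G13610 lost its call with any 1 of the 8 arrays left out except wild-type PMI replicate 2 (limma adjusted p between 0.0757 and 0.221). AT1G44970 lost its call with any 1 of the 8 arrays left out except wild-type PMI replicate 1 (limma adjusted p between 0.0856 and 0.161). AT3G27200 was no longer called with either PMI array of wild type left out, nor with replicate 2 of either ms35 stage left out (limma adjusted p between 0.0504 and 0.115).

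AT1G26710 had 33.8 and 20.3 in wild-type PMII arrays, against 25.2 and 13.9 in wild-type PMI arrays, and 1706 and 1212 in ms35 PMII arrays, against 92.9 and 30.3 in ms35 PMI arrays, and the difference was -4.26 ± 0.72 (limma adjusted p = 0.0467). Only the ms35 PMII arrays were bright. AT1G75280 had 94.0 and 93.8 in wild-type PMII arrays, against 476 and 301 in wild-type PMI arrays, and 176 and 155 in ms35 PMII arrays, against 129 and 111 in ms35 PMI arrays, a difference of -2.45 ± 0.36 (limma adjusted p = 0.0313), and AT5G24580 had 203 and 143 in wild-type PMII arrays, against 336 and 266 in wild-type PMI arrays, and 254 and 216 in ms35 PMII arrays, against 123 and 108 in ms35 PMI arrays, a difference of -1.81 ± 0.31 (limma adjusted p = 0.0487). In both, the PMII arrays were lower than the PMI arrays in wild type and higher in ms35. AT1G26710 lost its call with any 1 of the 8 arrays left out except ms35 PMI replicate 1 (limma adjusted p between 0.0903 and 0.167). AT1G75280 lost its call with any 1 of the 8 arrays left out except wild-type PMI replicate 2 (limma adjusted p between 0.0714 and 0.161). AT5G24580 lost its call with any 1 of the 8 arrays left out (limma adjusted p between 0.0652 and 0.192).

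**Figure D5:**
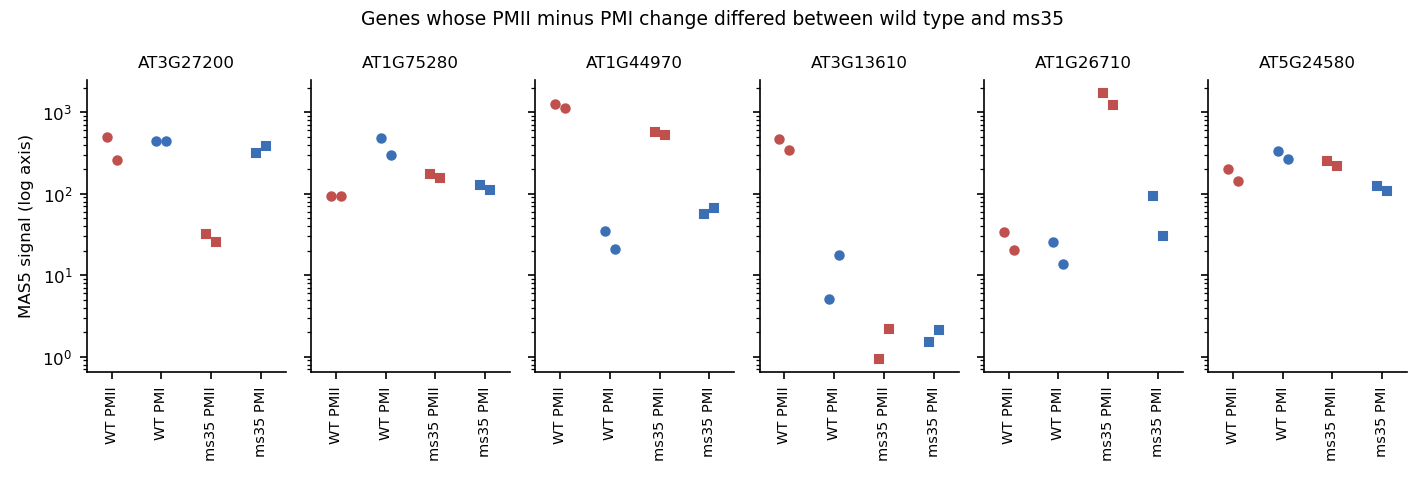
Signal (log axis, MAS5 units) of 6 genes in the wild-type PMII and PMI arrays (circles) and the ms35 PMII and PMI arrays (squares), 1 point per array. AT3G13610 is bright at PMII in wild type alone and AT1G26710 in ms35 alone, AT1G44970 is higher at PMII in both genotypes, and AT3G27200 is lower at PMII in ms35.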

How the data were processed

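RNA of anthers with filaments was measured on 12 Affymetrix ATH1 arrays, and the deposited values are intensity, as 1 signal per probe set on a linear scale. Per the submitters' processing notes MAS5 and GCOS made them, with versions not given in the sources used here. Each array had been scaled to the same trimmed mean (100.01 after trimming 2% at each end), which leaves a common shift in the middle of the values uncorrected.

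The 22810 probe sets included 64 controls, which were dropped. Signals were turned into log2(signal + 2.23), with the 10th percentile as pseudocount, so a change on this scale understates that of dim genes. Testing was limited to the 16464 probe sets above 25.5, the 40th percentile, in 2 or more arrays. Signals under that limit have no reliable order. In the probe annotation 13513 probe sets had 1 gene, 503 had several and 8730 had none. Of the 13513, 13436 were found in the TAIR10.1 gene table, which served for names only, and no other probe set was named.

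Limma 3.58.1 in R 4.3.3 fitted the means of the 6 groups to all 12 arrays (6 residual degrees of freedom, intensity trend), with Benjamini-Hochberg adjustment over all tested probe sets and a threshold of 0.05. Contrasts were PMII minus PMI in wild type and in ms35, and the difference of these steps. Simulated data for the wild-type contrast had 100 probe sets of 16464 changed by each size. The fit recovered 70% of changes of 2 and 11% of changes of 1 on the log2 scale, with 3 false calls among 84. The share changed was far below the 29.0% called in the data, and the simulated noise was independent and normal. These rates therefore do not describe how the fit performs on the data.

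The comparison and its 17 gene lists and 29 families were chosen with earlier results of these data known, and another 13 families were defined after the values were seen. Named genes were the 15 largest changes each way among called named probe sets, the 8 smallest p of the difference, up to 6 called and 3 uncalled members per list by size of change and by level, and up to 6 genes each way that were under the limit at one stage and over 20 times the limit at the other; the text names fewer, and those singled out were picked with their values in view. Results for 1 family are not reported here. Where several probe sets named 1 gene, the brightest stood for it. Same-numbered replicates were checked for pairing over 15 pairs of groups: the correlation of their deviations ran from -0.126 to 0.182 and exceeded 0.1 in 4, so the numbers were not treated as pairs.

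The alternatives tried were median centring, quantile normalization, other pseudocounts, filters and thresholds, a replicate block, other variance models, fewer arrays in the fit and leaving out each array.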

Additional observations from a re-analysis of the deposited data

Results flagged for a closer look

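The change from PMI to PMII arrays differed between wild type and ms35 for 6 named genes in a direct test of the difference (limma, adjusted over 16464 probe sets). The values are the wild-type step minus the ms35 step on the log2 scale, and none of the 6 was called under every alternative tried. AT3G27200 had 3.22, with an adjusted p between 0.00673 and 0.115 over 18 alternatives, 5 of which did not call it. AT1G75280 had -2.45 (adjusted p between 0.0133 and 0.161, not called under 9), and AT1G44970 had 2.25 (0.0155 to 0.163, not called under 9). AT3G13610 had 5.15 (0.00138 to 0.221, not called under 12), AT1G26710 had -4.26 (0.00431 to 0.212, not called under 11) and AT5G24580 had -1.81 (0.0172 to 0.204, not called under 11). The highest adjusted p came without the intensity trend for AT3G27200, AT1G44970, AT1G26710 and AT5G24580, without wild-type PMII replicate 1 for AT3G13610, and without ms35 PMI replicate 2 for AT1G75280.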

How the results depend on the processing

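The wild-type call count of 4771 ranged from 3456 to 5071 under other normalizations, pseudocounts, filters, variance models and sets of arrays, fell to 2552 at an adjusted p under 0.01, and ran from 3113 to 3204 when 1 wild-type PMII or PMI array was left out. For ms35 it was 1646 at an adjusted p under 0.01 and 1375 to 2661 with 1 array left out, against 3505. The 24 calls of the difference between the steps became 45 with a pseudocount of 16, 0 without the intensity trend, 6 at an adjusted p under 0.01, and 4 to 15 with 1 array left out. The number of arrays is smaller when 1 is left out, and otherwise the cause was not tested. With the replicate number as a block the counts were 4918 in wild type, 3668 in ms35 and 32 for the difference. In the main fit the numbers were not treated as pairs. Of the 106 genes given with a wild-type value, 88 kept their direction and their side of the threshold under every alternative that gave them a value, leaving out 1 array aside. A stricter filter on low signal gave a value for only 88 of the 106 genes, which is a separate count. Directions turned for 4 genes that were not called: EMS1 ran from -0.21 to 0.0893, XIH from -1.11 to 0.16, AT3G27200 from -0.75 to 0.16 and AT1G75890 from -2.09 to 0.90 with 1 array left out, and AT3G27200 had 0.16 without the 2 arrays of highest GAPDH ratio. Signals near the floor of the scale limit the size of the largest changes.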
